A study of Homo sapiens with 9 samples.

Results

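A set of 9 genes that encode antimicrobial proteins of skin was examined in HaCaT cells, an immortalized human keratinocyte line. They are S100A7, S100A8, S100A9, LCN2, PI3, SLPI, RNASE7, DEFB1 and OLFM4, chosen by name because their products act against microbes or damp the damage that goes with that defense. Of the 9, all but S100A7 (8 genes) are among the 16199 genes listed in at least 1 library. A gene that a library's table did not list was counted as 0 there. The RNA-seq data held 3 groups of 3 libraries, all from wild-type cells in serum-free medium. Untreated cells received the medium alone, EGF cells received 10 nM epidermal growth factor for 24 h, and pB1 cells received 1 µM bleogen pB1 for 24 h, with treatment begun on confluent cells. Bleogen pB1 is a cactus-derived peptide agonist of the EGF receptor (EGFR). The doses of the agonists differed, so a comparison of EGF with pB1 is one of these 2 treatments as given. All libraries came from 1 cell line grown without immune cells or dermis, and nothing in the labels says that replicates came from separate cultures, so p-values may measure technical spread only.

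Keratinocytes form the outer barrier of skin and make peptides and proteins that kill microbes or deprive them of metals. Some are made at rest, such as beta-defensin 1, and others are switched on by injury, microbial products, interleukin-1, interleukin-17, interleukin-22 or signaling through EGFR. Their genes are often raised in wounds and in psoriasis. S100A7, S100A8 and S100A9 bind calcium and sequester zinc or manganese, LCN2 captures bacterial iron carriers, PI3 and SLPI inhibit neutrophil proteases, RNASE7 is a microbicidal ribonuclease, and OLFM4 is a secreted olfactomedin glycoprotein found in neutrophils and in gut and other epithelia.

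Depth was even, with 20288417 to 21320994 expected counts and 14078 to 14401 listed genes per library. Differences were tested with edgeR's quasi-likelihood test on 12394 genes past a filter near 0.485 CPM (counts scaled to library size), and a gene was called at a Benjamini-Hochberg adjusted p of at most 0.05 and an absolute log2 fold change of at least 0.5. The keratinocyte label fitted its markers, with summed CPM of 14300 to 15600 in untreated, 13600 to 14600 in EGF and 14200 to 16300 in pB1 libraries and all 12 markers tested. Of the antimicrobial genes, 8 had any count, 6 passed the filter (LCN2, PI3, SLPI, RNASE7, DEFB1 and OLFM4). PI3 passed through its EGF libraries alone, RNASE7 through EGF and 1 untreated library, and DEFB1 through its untreated and pB1 libraries, so these genes were tested because they were high in some group, and the counts of calls below carry that choice. A fit with no count filter gave the same calls for the 6 genes in each comparison.

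Upstream sequence is shown for OLFM4, which had the largest fall with EGF, and for LCN2, which had the highest FPKM (level scaled for length and depth) of the 9 genes in untreated cells. Each run covers the 250 bases before the RefSeq start site on GRCh38.p14, plus strand, at chr13:53028563-53028812 for OLFM4 and chr9:128149203-128149452 for LCN2. The GENCODE bounds of LCN2 begin earlier, at chr9:128149071, so by that annotation its window lies within the gene. Capitals mark letters that match a searched motif.
OLFM4: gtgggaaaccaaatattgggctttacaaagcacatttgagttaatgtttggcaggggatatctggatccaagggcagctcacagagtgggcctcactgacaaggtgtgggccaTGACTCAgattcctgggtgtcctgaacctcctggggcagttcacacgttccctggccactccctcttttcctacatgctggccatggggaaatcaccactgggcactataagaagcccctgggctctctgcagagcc
LCN2: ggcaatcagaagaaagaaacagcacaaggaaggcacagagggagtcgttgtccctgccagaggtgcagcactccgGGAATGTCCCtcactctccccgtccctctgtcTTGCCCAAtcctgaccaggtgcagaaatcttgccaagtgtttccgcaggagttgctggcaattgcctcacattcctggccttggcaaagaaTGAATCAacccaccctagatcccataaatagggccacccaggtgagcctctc

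In OLFM4 the capitals mark 1 match, to the AP-1 motif TGANTCA, from base -137 to -131 counted from the start site. In LCN2 they mark an NF-kB-type match from -175 to -166, a C/EBP-type match (TTNNGNAA) from -143 to -136 and an AP-1 match from -52 to -46, with no overlap among them. Both strands were searched. Over 35116 RefSeq upstream windows of 250 bases, the NF-kB-type motif occurred in 9.96%, AP-1 in 6.57%, C/EBP in 33.2%, the GAS motif TTCNNNGAA in 6.57% and the ISRE in 3.02%. Windows were at hand for 6 of the 9 genes (LCN2, OLFM4, RNASE7, S100A7, S100A8 and S100A9). The AP-1 letters were also found upstream of RNASE7, the C/EBP letters upstream of RNASE7, S100A8 and S100A9, and the GAS and ISRE letters in none of the 6. Such matches describe letters, and no binding was measured.

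EGF was set against untreated cells to ask how a canonical EGFR ligand altered these transcripts. Levels of 4 of the 6 tested genes fell (OLFM4, DEFB1, SLPI and LCN2), the level of PI3 rose, and RNASE7 was not called. Over all tested genes 36.9% were called, 15.1% higher and 21.8% lower, shares that are background and not a measure of the 6 genes, given how they passed the filter. The fold changes of the 4 genes that fell ran from 1.6-fold to 51.8-fold.

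OLFM4 fell furthest of the genes that fell. Its expected counts were 755, 861 and 680 in the untreated libraries, 7, 22 and 14 in the EGF libraries, and 1255, 866 and 1051 in the pB1 libraries. Every EGF library was far below every other library, while 1 pB1 library stood within a few counts of the highest untreated one. The mean was 37 ± 4.94 CPM (SD, n = 3) in untreated, 0.71 ± 0.38 in EGF and 49.8 ± 9.89 in pB1 cells. OLFM4 thus fell 51.8-fold with EGF, or -5.69 on the log2 scale (SE 0.25, 95% interval -6.24 to -5.15, edgeR adjusted p = 2.4e-09). With limma on log2(FPKM + 1), a scale that understates changes of low genes, the difference was -3.50. Its untreated FPKM of 12.83, 14.8 and 11.52 lay at the 56th percentile of tested genes.

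DEFB1 encodes beta-defensin 1, the defensin that epithelia make without stimulation. Its counts were 89, 80 and 51 in untreated, 6, 4 and 6 in EGF, and 119, 55 and 91 in pB1 libraries. The EGF libraries again lay below all 6 others, and the untreated and pB1 ranges overlapped. The mean fell from 3.55 ± 0.983 to 0.263 ± 0.0539 CPM (SD, n = 3 each) with EGF, which is 13.2-fold (log2 fold change -3.72, SE 0.42, interval -4.63 to -2.81, edgeR adjusted p = 6.7e-06). With limma on log2(FPKM + 1) it was -2.57. The pB1 mean was 4.16 ± 1.57 CPM.

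The products of SLPI and PI3 are both inhibitors of neutrophil elastase with antimicrobial activity of their own, and their levels moved in opposite directions with EGF. SLPI counts were 95, 104 and 89 in untreated, 55, 68 and 46 in EGF, and 137, 134 and 135 in pB1 libraries. The 3 groups were fully separate, with EGF lowest and pB1 highest. The means were 4.64 ± 0.433, 2.79 ± 0.606 and 6.36 ± 0.167 CPM (SD, n = 3). The fall with EGF was 1.66-fold (log2 fold change -0.73, SE 0.17, interval -1.11 to -0.36, edgeR adjusted p = 0.0023).

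PI3, which encodes elafin, gave 0, 1 and 0 counts in untreated, 12, 18 and 18 in EGF, and 3, 1 and 1 in pB1 libraries. The transcript was near the limit of detection except in the EGF libraries, where it reached 0.791 ± 0.167 CPM (SD, n = 3). Summed over the groups, 48 counts with EGF against 1 without gave a depth-corrected ratio of 47.2, with an exact 95% counting interval of 8.08 to 1900. The fit called the rise (log2 fold change 5.17, SE 0.71, edgeR adjusted p = 3.7e-05, and 2.3e-05 with no count filter), but its size depends on how the near-zero untreated level is handled and ran from 1.26 to 7.05 over the alternatives. At its highest PI3 was still a rare transcript, with at most 18 counts in a library.

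LCN2 encodes lipocalin 2, which binds siderophores and so limits bacterial iron. Its counts were 342, 329 and 294 in untreated, 178, 211 and 202 in EGF, and 347, 254 and 312 in pB1 libraries. All 3 EGF libraries lay below the other 6. The mean was 15.6 ± 1.33 CPM in untreated and 9.75 ± 0.863 CPM in EGF cells (SD, n = 3 each), a 1.6-fold fall (log2 fold change -0.67, SE 0.13, interval -0.96 to -0.39, edgeR adjusted p = 0.00059).

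RNASE7, a ribonuclease of the uppermost epidermis, was sparse. Its counts were 8, 11 and 9 in untreated, 17, 19 and 11 in EGF, and 5, 5 and 8 in pB1 libraries. One EGF library shared its count of 11 with an untreated library, and the pB1 libraries did not exceed the lowest untreated count. The EGF mean was 0.778 ± 0.222 against 0.452 ± 0.0797 CPM (SD, n = 3), and the difference was not called (log2 fold change 0.77, SE 0.35, interval 0.01 to 1.54, edgeR adjusted p = 0.069). Without EGF replicate 3 it was called, with a log2 fold change of 0.99 and an adjusted p of 0.037.

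The S100 genes that are raised in inflamed skin were at or near 0 in HaCaT cells under every condition. S100A7, encoding psoriasin, had no count in any of the 9 libraries, where 3 counts would be 0.141 to 0.148 CPM. S100A8, encoding a subunit of calprotectin, had 0, 0 and 0 counts in untreated, 0, 0 and 1 in EGF and 0, 0 and 2 in pB1 libraries. S100A9, its partner subunit, had 2, 7 and 3 counts in untreated, 8, 5 and 9 in EGF, and 8, 13 and 7 in pB1 libraries. The S100A9 groups overlapped, and its difference in CPM gave p = 0.2 for EGF and p = 0.2 for pB1 by two-sided exact permutation tests, where 3 against 3 libraries cannot give less than 0.1. The counting ratio to untreated was 1.8 with EGF (exact 95% interval 0.854 to 4) and 2.29 with pB1 (1.13 to 4.94), an interval that leaves out the spread between libraries. A change in S100A7 or S100A8 was not detectable at this depth.

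**Figure D1:**
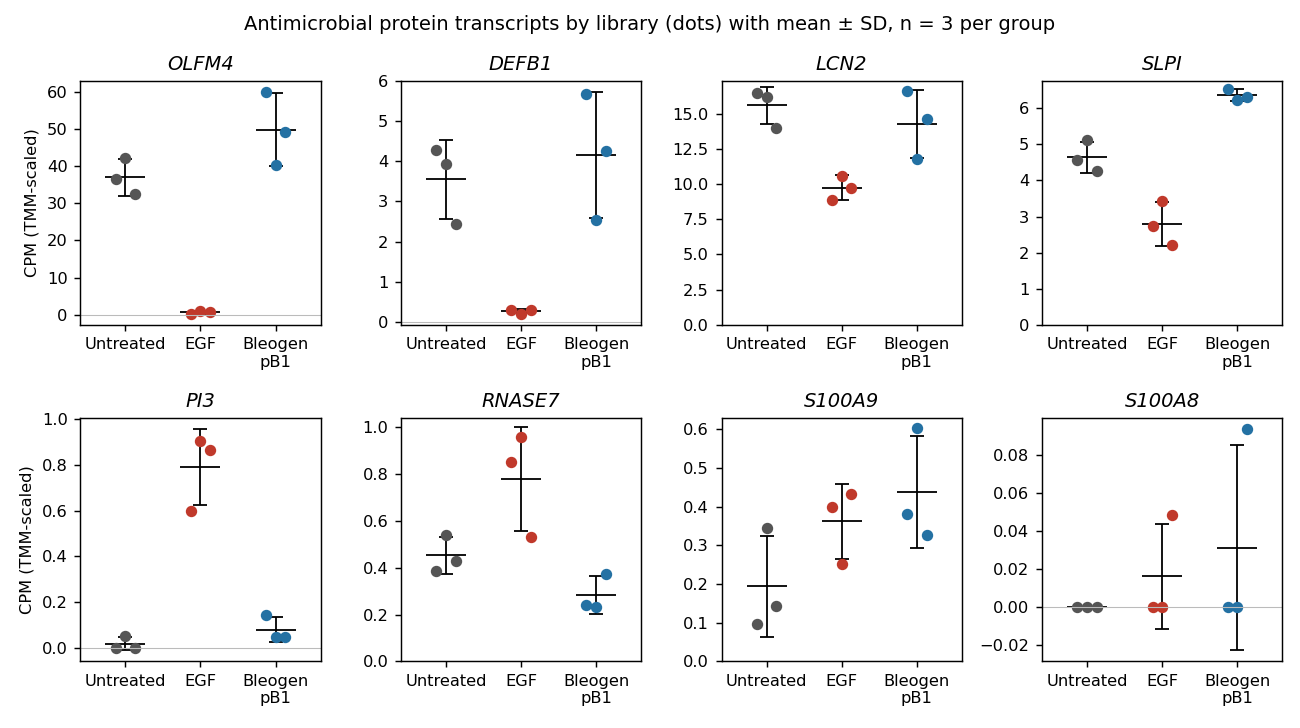
CPM of 8 antimicrobial protein genes by library (TMM-scaled, y axis, a separate range per gene) in untreated, EGF and bleogen pB1 cells. Dots are libraries, the long dash is the mean and the bar is ± SD (n = 3); S100A7 had no count and is not drawn. OLFM4, DEFB1, LCN2 and SLPI were lowest in the EGF libraries, PI3 was highest there, and S100A8 and S100A9 stayed under 1 CPM throughout.

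Bleogen pB1 was set against untreated cells as the second agonist. None of the 6 tested genes was called, beside 1.48% of all tested genes. By edgeR without adjustment, 2 of the 6 had p under 0.05, compared with 22.2% of all tested genes. DESeq2 called 0 of the 6, but it gave no adjusted p for PI3, RNASE7 and DEFB1 and so could not call them. The genes with an unadjusted p under 0.05 were SLPI and OLFM4.

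SLPI averaged 6.36 CPM with pB1 against 4.64 CPM without, a log2 fold change of 0.45 (SE 0.16, interval 0.11 to 0.80, edgeR unadjusted p = 0.014, adjusted p = 0.12). Its 3 pB1 libraries lay above all 3 untreated ones. OLFM4 averaged 49.8 against 37 CPM, a log2 fold change of 0.43 (SE 0.15, interval 0.10 to 0.75, unadjusted p = 0.015, adjusted p = 0.12), with overlapping libraries. Neither difference passed the test over all genes.

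For the other genes the 95% intervals of the pB1 difference took in 0. The log2 fold change of LCN2 was -0.12 with an interval of -0.40 to 0.16 (edgeR adjusted p = 0.62). That of DEFB1 was 0.23 with the wider interval of -0.37 to 0.83 (adjusted p = 0.67). RNASE7 gave -0.67 (-1.57 to 0.24, adjusted p = 0.38) although its libraries did not overlap. PI3 gave 1.93 (-0.51 to 4.37, adjusted p = 0.34) from 5 counts against 1, a ratio of 4.91 with a counting interval of 0.549 to 232.

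The direct comparison of the treatments called all 6 tested genes, with the choice by filter noted above for PI3, RNASE7 and DEFB1, beside 28.8% of all tested genes (10.8% higher and 18% lower with EGF). OLFM4, DEFB1, SLPI and LCN2 were lower with EGF than with pB1, and PI3 and RNASE7 were higher. The EGF libraries are shared with the comparison against untreated cells, so these values are not a second, separate measurement of the EGF response.

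OLFM4 was 69.6-fold lower with EGF than with pB1 (log2 fold change -6.12, SE 0.25, edgeR adjusted p = 1.6e-09) and DEFB1 15.4-fold lower (-3.95, SE 0.41, adjusted p = 5.4e-06). SLPI, for which the treatments lay on either side of untreated cells, was 2.28-fold lower (-1.19, SE 0.17, adjusted p = 7.2e-05). LCN2 was 1.47-fold lower (-0.55, SE 0.13, adjusted p = 0.0031), close to the fold threshold. Its call was lost without EGF replicate 1 (log2 fold change -0.49) or without pB1 replicate 1 (-0.44).

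PI3 gave 48 counts with EGF against 5 with pB1, a ratio of 9.62 with a counting interval of 3.85 to 31 (fitted log2 fold change 3.24, SE 0.54, edgeR adjusted p = 0.00024, and 0.00026 with no count filter). The fitted value ran from 1.09 with limma on log2(FPKM + 1) to 3.92 without pB1 replicate 1. For OLFM4 and DEFB1 the former gave -3.91 and -2.79. RNASE7 was 2.72-fold higher with EGF than with pB1 (log2 fold change 1.44, SE 0.38, edgeR adjusted p = 0.006, and 0.011 with no count filter), while neither treatment was called against untreated cells. Its means of 0.282 with pB1, 0.452 without treatment and 0.778 CPM with EGF put the untreated level between the treatments.

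**Figure D2:**
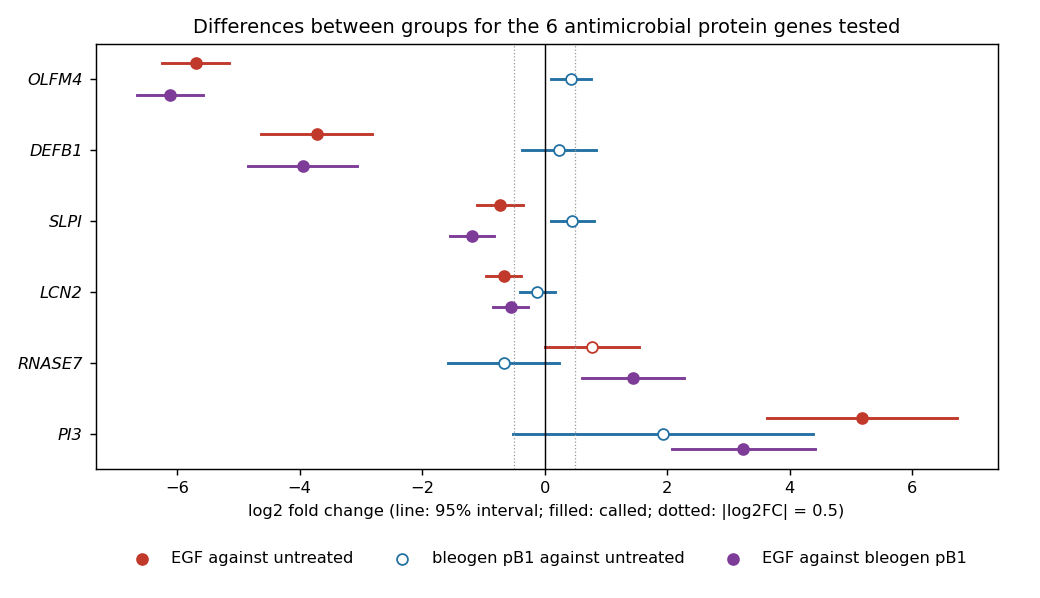
Log2 fold changes (x axis) of the 6 antimicrobial protein genes tested, with 95% intervals as lines, for EGF against untreated (red), pB1 against untreated (blue) and EGF against pB1 (purple). Filled points were called and dotted lines mark 0.5 either side of 0. All pB1 points are open, and the EGF points run from -5.69 for OLFM4 to 5.17 for PI3.

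Per length, the make-up of the antimicrobial transcripts differed between the groups. The FPKM of the 9 genes summed to 44.1 to 55.3 in untreated, 18.9 to 22.3 in EGF and 49.7 to 70.8 in pB1 libraries. LCN2 led in every group, with 37.1 to 41% of the sum in untreated, 57.3 to 60.8% in EGF and 30.5 to 31.5% in pB1 libraries. OLFM4 held 24 to 26.8% in untreated and 29 to 30.1% in pB1 libraries but 0.634 to 1.66% with EGF. DEFB1 went from 13.7 to 19.9% in untreated to 2.06 to 3.7% in EGF libraries, and was 13.2 to 20.4% with pB1. SLPI made up 15.7 to 17.8%, 19.7 to 26.3% and 17.3 to 23.7% in untreated, EGF and pB1 libraries, so its share was higher with EGF although its level was lower. Among tested genes in untreated cells, LCN2 stood at the 68.1 percentile of FPKM, OLFM4 at 56, DEFB1 at 45.2, SLPI at 44.5, RNASE7 at 5.37 and PI3 at 0.153. DEFB1 and SLPI are neighbors in that order whose untreated FPKM ranges overlapped.

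**Figure D3:**
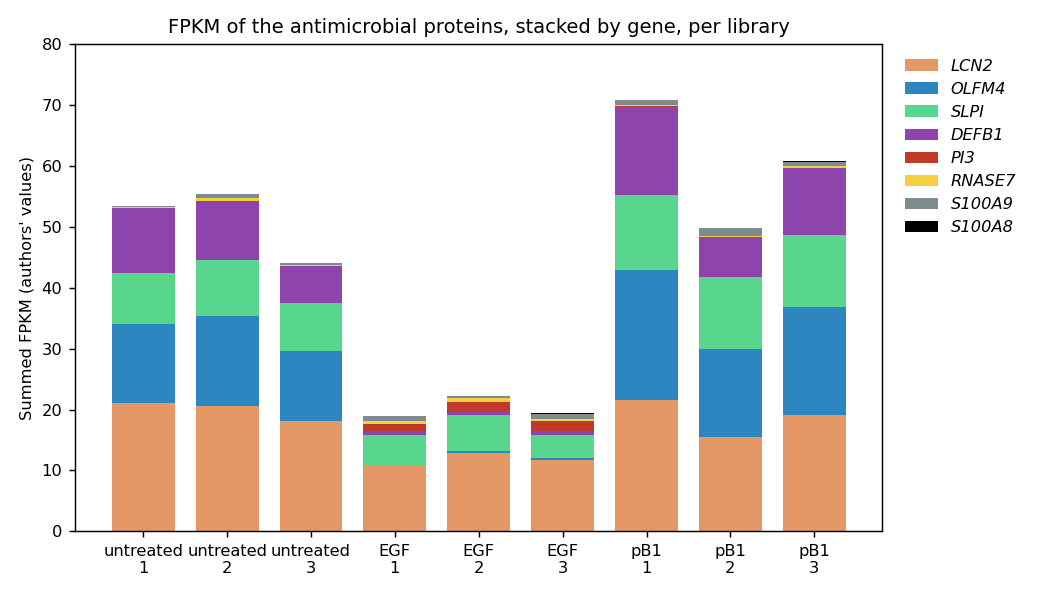
FPKM summed over the antimicrobial protein genes (y axis), stacked by gene, for each of the 9 libraries (x axis). The EGF bars total 18.9 to 22.3 FPKM and hold almost no OLFM4, while the untreated bars total 44.1 to 55.3 and the pB1 bars 49.7 to 70.8.

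Other antimicrobial genes of skin were few in HaCaT cells. Of 28 such genes, 14 had no count in any library, among them DEFB4A and DEFB4B (near-identical copies of beta-defensin 2), DEFB103A and DEFB103B (beta-defensin 3), S100A7A and DCD (dermcidin of sweat). Of the 6 that were tested, 2 were called lower and 0 higher with EGF, and 0 were called with pB1. Over all tested genes, 21.8% were lower and 15.1% higher with EGF, and 1.48% were called with pB1. Counts of calls in this and the following lists describe the lists and do not test them against those shares. The 2 of the 6 tested that fell, named here after their values were seen, were the ribonuclease genes ANG (angiogenin) at -1.06 on the log2 scale (SE 0.29, adjusted p by edgeR 0.0052) and RNASE4 at -0.65 (SE 0.25, adjusted p = 0.034). Their expected counts were fractional in most libraries (27.95 and 30.05 in untreated replicate 1) and added to a whole number in each. Reads were thus divided between ANG and RNASE4 by estimation, and their falls are not separate results. Both genes differ in direction from RNASE7 at 0.77, which did not pass the test.

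The remaining S100 genes were abundant, at a summed 4050 to 4710 CPM in untreated, 4880 to 4980 in EGF and 3920 to 4520 in pB1 libraries, against under 1 CPM for S100A8 and S100A9 together. With EGF 3 of 10 tested rose and 0 fell, beside 15.1% and 21.8% of all tested genes. With pB1 0 were called, beside 1.48%. S100A2, an epidermal S100 gene, went from 269 ± 25.4 to 660 ± 22.3 CPM (SD, n = 3; log2 fold change 1.30, edgeR adjusted p = 1.6e-08), and S100A3, known from the hair cuticle, from 2.98 ± 0.518 to 6.95 ± 1.39 CPM (1.22, adjusted p = 8.2e-05). In pB1 cells they averaged 269 and 2.65 CPM.

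Receptors and binding partners of the antimicrobial proteins were tested for 15 of 20 genes. Of these 4 rose and 5 fell with EGF, beside 15.1% and 21.8% of all tested genes, and 0 were called with pB1, beside 1.48%. TLR4, a receptor through which S100A8 and S100A9 can signal, rose by a log2 fold change of 1.21 (14.7 to 33.9 CPM, edgeR adjusted p = 5e-07). TGM2 rose (2.99, adjusted p = 1.7e-06) and TGM1 fell (-1.81, adjusted p = 3.8e-06); both encode transglutaminases, enzymes that can crosslink elafin to matrix or cornified envelope proteins. PLSCR1 and PLSCR4, scramblases reported to bind SLPI, fell (-1.65, adjusted p = 1.6e-09, and -2.37, adjusted p = 4.2e-08). MMP9, whose protein pairs with lipocalin 2 in a secreted complex, averaged 0.819 CPM without treatment and 4.48 with EGF (2.44, SE 0.35, adjusted p = 4.6e-05). ELANE, which encodes the elastase that elafin and SLPI inhibit, and PRTN3, which encodes another neutrophil protease, had no count. SLC22A17, the lipocalin 2 receptor gene, was at 0.534 CPM untreated and 0.0816 CPM with EGF (-2.61, SE 0.65, adjusted p = 0.0032). It was sparse, with 14, 15 and 4 counts in untreated, 1, 1 and 3 in EGF, and 10, 8 and 10 in pB1 libraries. It thus passed the filter without its EGF libraries, and its call carries that choice.

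Cytokines, their receptors and microbial sensors that induce antimicrobial proteins were tested for 22 of 36 genes. Of these 3 rose and 10 fell with EGF, beside 15.1% and 21.8% of all tested genes, and 0 were called with pB1, beside 1.48%. The genes for the cytokines IL17A, IL17C, IL22 and IL36A had no count. IL1B rose from 13.8 to 37 CPM (log2 fold change 1.43, edgeR adjusted p = 1.7e-07) and IL1A from 15 to 37 CPM (1.30, adjusted p = 6.8e-06). IL1RL2, the receptor for interleukin-36, rose by 0.55 with EGF (SE 0.17, adjusted p = 0.011) and was at 0.49 with pB1 (SE 0.17, adjusted p = 0.11). The genes that fell with EGF included TLR1 (-2.87, adjusted p = 1.3e-06), TLR5 (-1.65, adjusted p = 1.4e-05), IL36RN, the interleukin-36 antagonist (-2.28, adjusted p = 1.8e-05), and IL22RA1, a subunit of the interleukin-22 receptor (-1.74, adjusted p = 4.1e-05). EGFR itself was at -0.43 (adjusted p = 0.002), inside the fold threshold.

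Transcriptional regulators linked to antimicrobial genes, listed together with the vitamin D enzyme genes CYP27B1 and CYP24A1, were tested for 22 of 24 genes. With EGF 8 were higher and 5 lower, beside 15.1% and 21.8% of all tested genes. With pB1 0 were higher and 1 lower, beside 1.48% called in either direction. CYP27B1, the enzyme that makes active vitamin D, rose from 6.05 ± 0.497 to 63.6 ± 15.4 CPM with EGF (SD, n = 3; log2 fold change 3.39, edgeR adjusted p = 5.1e-09), and was 6.02 ± 0.681 with pB1. The NF-kB family genes NFKB2 (1.45, adjusted p = 3.1e-05) and BCL3 (1.39, adjusted p = 4.7e-06) rose with EGF. ELF3, an epithelial ETS factor, fell by 2.82 on the log2 scale (adjusted p = 5.1e-09) and CEBPD by 0.72 (adjusted p = 0.00056). The C/EBP genes did not move as 1 family. CEBPA also fell (-0.63, adjusted p = 0.0016), while CEBPB (0.84, adjusted p = 1.4e-05) and CEBPG (0.94, adjusted p = 1.1e-05) rose with EGF. NFKBIZ, a co-activator that many antimicrobial genes need, gave -0.07 with EGF (SE 0.13, adjusted p = 0.66). GRHL3, an epidermal barrier factor, was lower with EGF than with pB1 (-0.89, SE 0.24, adjusted p = 0.0066) and was called in neither comparison with untreated cells.

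**Figure D4:**
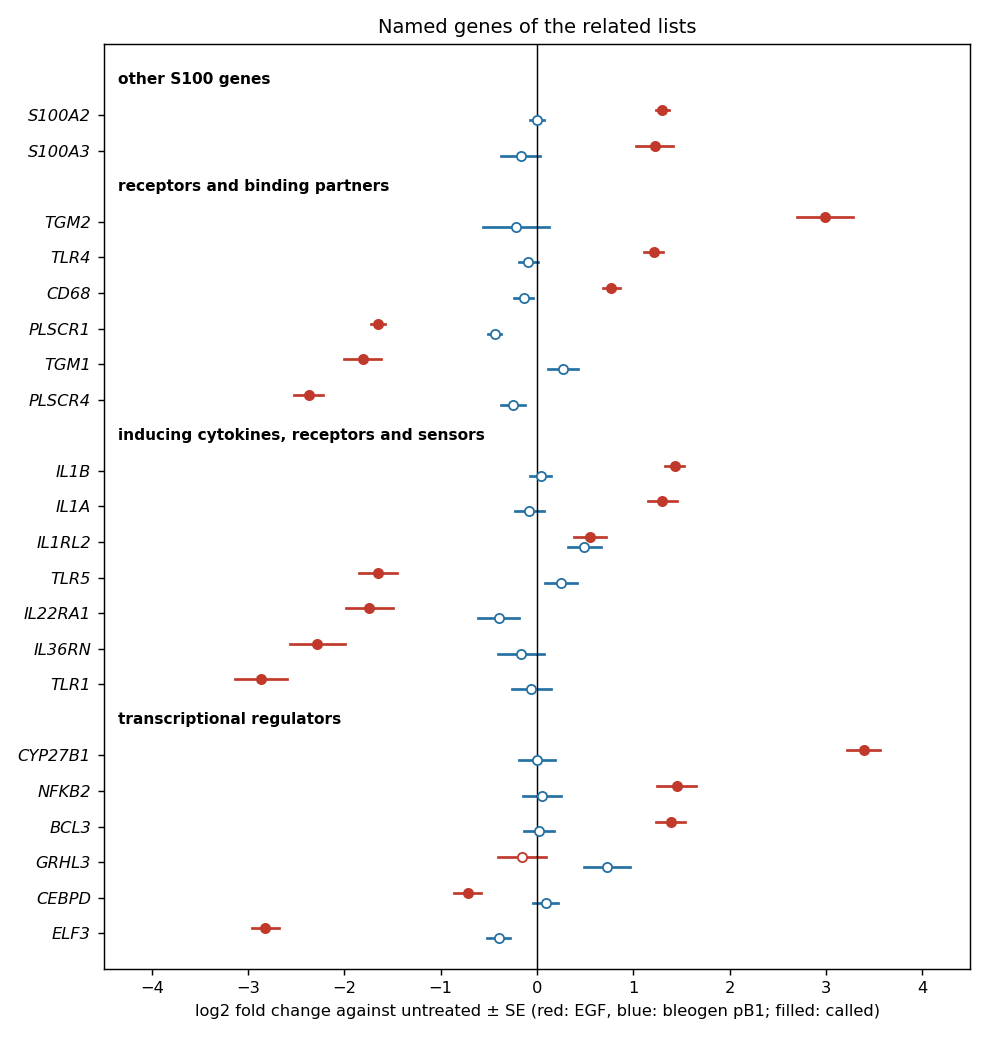
Log2 fold changes against untreated (x axis, ± SE) of genes named in 4 related lists, for EGF (red) and bleogen pB1 (blue). Filled points were called, and of the genes drawn GRHL3 is the 1 with an open red point.

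Markers of other cell types that make these proteins were low. Of 10 neutrophil markers, MPO, ELANE and PRTN3 had no count, and the summed level was 0.626 to 1.38 CPM in untreated, 0.65 to 2.82 in EGF and 0.573 to 1.44 in pB1 libraries, whereas OLFM4 alone was at 37 CPM in untreated cells. ITGAM, the 1 neutrophil marker tested, was called higher with EGF (log2 fold change 1.45, SE 0.55, edgeR adjusted p = 0.032), beside 15.1% of all tested genes. Its counts were 7, 11 and 17 in untreated, 8, 50 and 36 in EGF, and 7, 13 and 17 in pB1 libraries. Monocyte and macrophage markers summed to 12.7 to 14.2, 21.1 to 22.6 and 12.4 to 12.8 CPM, most of it CD68, which many cells express and which rose with EGF (log2 fold change 0.77, edgeR adjusted p = 1.1e-05). Fibroblast markers summed to 7.61 to 9.31 CPM in untreated, 1.3 to 1.95 in EGF and 6.08 to 9.07 in pB1 libraries. All 3 tested were lower with EGF, beside 21.8% of all tested genes, a share that is background and not a measure of these markers. DCN, with 0, 0 and 1 counts in the EGF libraries, passed the filter through the other groups, so its call carries that choice. Melanocyte markers summed to at most 1.58 CPM, with TYR at no count. Of the 12 keratinocyte markers, 5 were higher and 3 lower with EGF, beside 15.1% and 21.8% of all tested genes. The differentiation keratin KRT1 went from 7.07 CPM to 0.414 with EGF (-4.08, adjusted p = 5.1e-07) and to 12.5 with pB1 (0.83, adjusted p = 0.048), and the basal keratin KRT5 fell with EGF (-1.12, adjusted p = 1.7e-07). In contrast KRT14 (0.88, adjusted p = 3e-07), KRT10 (0.67, adjusted p = 0.00037), ITGA6 (1.30, adjusted p = 1.5e-08) and COL17A1 (0.66, adjusted p = 2.1e-06) rose with EGF. The part of these markers in the antimicrobial results was not tested. In bulk RNA, fewer cells making a transcript and less of it per cell cannot be told apart.

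The genes whose log2 CPM ran most like that of each antimicrobial gene over the 9 libraries are given as a description, since the libraries share the split of EGF from the rest. For OLFM4 they were DIO2, the thyroid hormone activating deiodinase (Pearson r 0.998), PPP2R2B (0.996) and NAALADL2 (0.994), among 10868 genes. DIO2 itself differed by -5.64 with EGF and 0.65 with pB1 on the log2 scale. For DEFB1 they were the complement gene C3 (0.998), HSPB1 (0.997) and ZNF608 (0.996). For LCN2 they were SLC27A1 (0.994), HINT2 (0.990) and GNPTG (0.989), and for PI3 PHF10 (0.992), INHBA (0.989) and SERPINB2 (0.988). SLPI, with its 3 separate groups, had fewer close companions: EPHB3 and ATP8B2 (both 0.967) and FGFR3 (0.966), and 6 genes reached 0.95, against 598 for OLFM4, 820 for DEFB1, 372 for LCN2 and 238 for PI3. For RNASE7 the highest were SMAD2 (0.940), CLTA (0.930) and ELL (0.923).

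The 9 genes lie on 6 chromosomes of GRCh38 (GENCODE gene bounds), and all are annotated as protein-coding. S100A9 (chr1:153357854-153361023, plus strand), S100A8 (chr1:153390032-153391073, minus) and S100A7 (chr1:153457744-153460651, minus) lie in that order within the S100 cluster. Between S100A9 and S100A8 are 29008 bases, and between S100A8 and S100A7 are 66670. Gaps were measured among the 9 genes only, without regard to other genes that lie between them. PI3 (chr20:45174902-45176544, plus) and SLPI (chr20:45252239-45254564, minus) lie 75694 bases apart, and with EGF the level of the first rose while that of the second fell. OLFM4 occupies chr13:53028813-53052057 (plus, 5 exons), LCN2 chr9:128149071-128153453 (plus, 7 exons) and RNASE7 chr14:21042316-21044234 (plus, 2 exons).

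DEFB1 occupies chr8:6870592-6877936 on the minus strand and has 2 exons.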

How the data were processed

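Poly(A)-selected RNA of 9 HaCaT samples was sequenced at BGI and mapped to GRCh38.p12, per the labels and the study's methods. The counting program, and whether it used strand, are not given in the sources used here. Per the file headers, the authors deposited 1 table per library with an expected count per gene (estimated, unscaled) and an FPKM per gene. Expected counts were rounded, and genes not listed were set to 0. edgeR 4.0.16 (R 4.3.3) with TMM factors (0.9636 to 1.024) and filterByExpr was fitted to all 9 libraries at once, with 6 residual degrees of freedom, and p-values were adjusted over all 12394 genes. CPM are TMM-scaled. SEs come from the quasi-likelihood F statistic. Genes under the filter were compared by exact permutation tests or exact counting intervals, which cover counting error only, as does the floor of 3 counts. The scripts were tested on simulated data.

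Alternatives were DESeq2 1.42.0, limma 3.58.1 on log2(FPKM + 1) or log2(FPKM + 0.1), other scalings, filters and thresholds, each library left out, and a replicate block. The 9 genes and the related lists were chosen with earlier results of these data known. Within a list, up to 3 rises and 3 falls with an average of at least 50 counts were named, largest change first, together with partners of the 9 genes. ITGAM, DCN, CEBPA, CEBPB and CEBPG were named outside that rule, after their values were seen. For 1 regulator that the rule named, values are not reported here, though list counts include it. Sequences are from RefSeq.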

Additional observations from a re-analysis of the deposited data

Results flagged for a closer look

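SLPI was flagged because of the order of its libraries. Every EGF library was below, and every pB1 library above, all 3 untreated libraries. The share of all genes with this order was not counted. The direct test, on the same libraries that the flag used, gave a log2 fold change of EGF against pB1 of -1.19 (SE 0.17, edgeR adjusted p = 7.2e-05). The pB1 difference from untreated cells alone did not pass the test (0.45, adjusted p = 0.12), and the doses of the agonists differed. With single libraries left out, the EGF against pB1 value of SLPI ran from -1.35 to -1.04. Groups of 3 libraries were too small for a test of whether any 1 library was an outlier.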

How the results depend on the processing

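Of the values of the 6 tested genes under the alternatives, 338 kept their direction and their side of the threshold, 3 lost the call, 1 gained it and 1 changed sign. The 338 include PI3, RNASE7 and DEFB1 under DESeq2 for pB1 against untreated, which had no adjusted p and counted as not called. The sign change was DEFB1 with pB1 against untreated, which ran from -0.06 (without pB1 replicate 1) to 0.48 when single libraries were left out and was not called under any. RNASE7 in EGF against pB1 lost its call under limma on log2(FPKM + 1) (0.33, adjusted p = 0.0038, under the fold threshold).

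With at least 10 counts in every library, LCN2 and SLPI were the only ones of the 9 genes left, so 2 were called in EGF against untreated and 2 in EGF against pB1. At an absolute log2 fold change of at least 1, 3 of the 5 called with EGF against untreated were left. Over all genes, the calls of EGF against untreated went from 4578 to 1892 at that threshold and to 8187 with the adjusted p alone, those of pB1 from 183 to 31 and 509, and those of EGF against pB1 from 3564 to 1458 and 7214. Leaving out single libraries gave 102 to 436 calls for pB1 against untreated: 102 without untreated replicate 1, 436 without pB1 replicate 1, 109 without pB1 replicate 2 and 102 without pB1 replicate 3. None of the 9 genes was among them in any of these fits. Upper-quartile factors moved the median of all genes by EGF to -0.12, and 30.2% of calls were then higher against 41% with TMM; the 5 calls kept their number.

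Deviations of same-numbered libraries from their group means had correlations of 0.0039 to 0.0449 for EGF and untreated, -0.0304 to 0.207 for pB1 and untreated, and 0.0269 to 0.0562 for EGF and pB1. Their means were above those of differently numbered libraries (0.0281 against -0.0141, 0.0965 against -0.0486 and 0.0403 against -0.0198), though the ranges overlapped. The numbers were not taken as pairs in the main fit. With the replicate block 4560, 186 and 3550 genes were called in the 3 comparisons, and 5, 0 and 6 of the 9 genes. Depth limits S100A7, S100A8, S100A9, PI3 and RNASE7, which had fewer than 20 counts in every library.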
